A study of Mus musculus with 12 samples.

Results

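The genes described here are 7 glycolytic enzymes, Hk1, Hk2, Pfkl, Pfkfb3, Aldoa, Gapdh and Ldha, and 3 monocarboxylate carriers, Slc16a1, Slc16a3 and Slc5a8. They were chosen by name, as every probe set that the annotation table of the array gives to 1 of these symbols and to no other. That rule gave 18 probe sets for the 10 genes, of 22690 probe sets and 12394 genes on the array. A further 3 probe sets list a member together with other genes (2 with Gapdh, 1 with Hk1), and name no gene here.

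Small intestine of male mice aged 14 weeks was profiled on Affymetrix MOE430A arrays in 4 groups of 3 biological replicates, 12 arrays in all. The groups were wild-type and PPARα-null mice that were fed, and mice of both genotypes fasted for 24 h. PPARα is the nuclear receptor that switches on fatty acid oxidation genes when fatty acids are released during fasting. Wild-type mice are 129S1/SvImJ and PPARα-null mice 129S4/SvJae in the study's methods and in the labels of the fasted groups (129Sv in those of the fed ones), so that genotype and substrain cannot be told apart. Whether the mice ate chow or the purified AIN93M diet differs between the sources, fasting began at the onset of light, and the RNA came from the full-length intestine, so that fewer cells of a type and less RNA per cell cannot be told apart. The free-text description of the 3 wild-type fasted samples names knockout mice, whereas their title and strain say wild-type, and the group is taken from the latter. The deleted gene Ppara read 19.9 to 35.9 in wild-type fed and 30.8 to 58.7 in wild-type fasted mice, against means of 7.23 ± 0.346 in fed and 11.9 ± 1.16 in fasted PPARα-null mice (SD, n = 3).

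All levels are intensities on the linear scale as deposited, and a level of 20 was taken as expressed. Over the 9370 probe sets above 20 in wild-type fed mice, fasted arrays read lower than fed arrays by a median of 0.32 on the log2 scale, 0.28 in wild-type and 0.33 in PPARα-null mice. Fed arrays had medians of 12.6 to 12.8 and fasted arrays of 11.1 to 11.3, and their values are written with different numbers of decimals. They look like sets normalized separately, and feeding state and set cannot be told apart. Changes upon fasting are therefore given relative to that single shift of −0.32, with the value as deposited beside it where the call differs. Comparisons of genotypes in mice fed alike contain no such shift. Where one fasting response is set against the other the single shift cancels, but the difference between 0.28 and 0.33 remains. For the carriers, the wild-type fasted log2 means equal those in the paper's supplement. The wild-type fed means are lower than the paper's for Slc5a8 and higher for Slc16a1 and Slc16a3. A single shift does not remove differences between the sets that vary by gene. To pass the test a probe set needed a fold over 1.3 and a p under 0.01, before adjustment, in limma fitted to all probe sets and arrays, and between fasting responses also an adjusted p under 0.05. Adjusted p-values were computed by Benjamini-Hochberg across the expressed probe sets. Precision is limited by the 3 arrays per group, and p-values measure the spread between these mice.

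Glycolysis splits glucose into pyruvate in the cytosol, and lactate dehydrogenase exchanges pyruvate with lactate. Hexokinases trap glucose as glucose 6-phosphate, and phosphofructokinase 1, the main control point, is activated by fructose 2,6-bisphosphate, which Pfkfb enzymes make. Lactate, pyruvate, ketone bodies and short-chain fatty acids cross membranes on monocarboxylate carriers, either with a proton (the Slc16 family) or with sodium (Slc5a8). The small intestine burns much glutamine and ketone bodies, and its proliferating crypt cells and absorptive villus cells differ in their use of glucose.

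Upon fasting of wild-type mice Slc5a8 rose and Slc16a3 fell, and no glycolytic enzyme passed the test. These were 2 of 16 expressed probe sets of the members (12.5%), against 17.5% of all expressed probe sets, of which 10% were higher and 7.43% lower. The median change of the members was −0.06 and that of all probe sets tested 0.03. In PPARα-null mice Slc5a8 rose, and Slc16a3 and Pfkfb3 fell, 3 of 16 probe sets (18.8%) against 42.2% of all, with 18.6% higher and 23.6% lower. The plot of changes upon fasting shows each probe set with its interval.

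**Figure D1:**
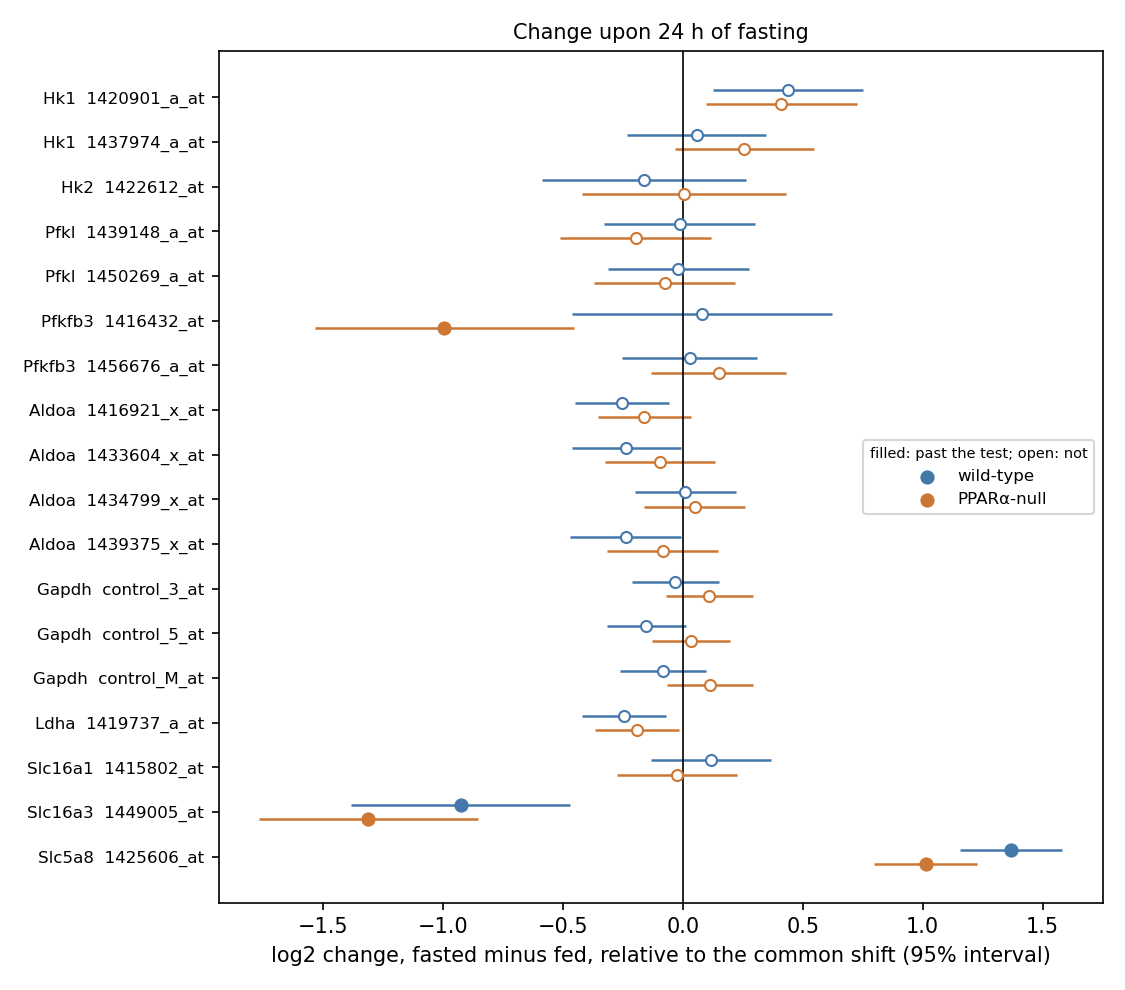
Change upon 24 h of fasting for each of the 18 probe sets (log2 of fasted over fed, relative to the common shift; points are estimates, lines 95% intervals from limma) in wild-type and PPARα-null mice. Slc5a8 at 1.37 and 1.01 and Slc16a3 at −0.93 and −1.31 stand away from 0 in both genotypes, and Pfkfb3 at −0.996 in PPARα-null mice alone passed the test. The names with control are the 3 Gapdh control probe sets of the array.

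Slc5a8, also called SMCT1, carries lactate, pyruvate, butyrate and nicotinate into cells together with sodium, and is best known from colon and kidney. The 250 bases before its start of transcription (RefSeq, GRCm38.p6, the reference strain and not the strains studied, plus strand, chr10:88885742-88885991) are printed because the gene had the largest change of the members in wild-type mice. Here and below sequences run 5′ to 3′ and end at position −1, and capitals mark the letters ACGTG or GCGTG (core letters of hypoxia response elements), CACGTG (the E-box, which contains ACGTG on both strands) and AGGTCA (the core letters of nuclear receptor sites), searched on both strands. In Slc5a8 the single match is GCGTG at position −175.
Slc5a8: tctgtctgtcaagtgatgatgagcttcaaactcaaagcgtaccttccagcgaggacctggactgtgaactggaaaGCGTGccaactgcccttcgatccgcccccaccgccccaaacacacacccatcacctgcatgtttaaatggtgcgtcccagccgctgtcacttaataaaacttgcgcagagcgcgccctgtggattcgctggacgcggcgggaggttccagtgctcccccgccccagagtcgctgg

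Its intensity was 53.2, 52.2 and 50.9 in wild-type fed mice and 106, 101 and 119 in wild-type fasted mice. PPARα-null mice gave 49.0, 54.0 and 60.1 when fed and 85.5, 96.2 and 82.3 when fasted. Every fasted array thus read above every fed array of its genotype, before any shift was removed. The change upon fasting was 1.37 in wild-type mice (standard error 0.099, 95% interval 1.15 to 1.58, adjusted p = 9.71e-06), a fold of 2.58. It was 1.01 in PPARα-null mice (standard error 0.099, adjusted p = 3.79e-06), a fold of 2.02. As deposited, the rises were 1.05 and 0.70, and both passed. For this probe set the paper gives a smaller rise and a higher fed level in wild-type mice. The standard errors and intervals leave out differences between the fed and fasted sets, so that the size of the rise is uncertain. The response was larger in wild-type mice by 0.36 (95% interval 0.05 to 0.66), which did not pass the test (adjusted p = 0.084). In the paper this probe set is unchanged in fasted PPARα-null mice, and the gene is counted as PPARα-dependent. The deposited values rise in both genotypes, from a fed level that in wild-type mice is lower than the paper's. The paper prints no level of this probe set in PPARα-null mice, so that their fed level cannot be compared in the same way. How much of the PPARα-null rise comes from such a difference in fed levels was not tested. Fed mice of the genotypes differed by 0.06 and overlapped. All 3 fasted PPARα-null arrays read below all 3 fasted wild-type arrays, a difference of −0.30 (adjusted p = 0.029) that missed both the p and the fold required.

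Slc16a3, also called MCT4, is the carrier with which glycolytic cells export lactate, and a known target of hypoxia-inducible factor. Its upstream bases (plus strand, chr11:120948817-120949066) hold ACGTG at positions −27 and −14, both close to the start of transcription.
Slc16a3: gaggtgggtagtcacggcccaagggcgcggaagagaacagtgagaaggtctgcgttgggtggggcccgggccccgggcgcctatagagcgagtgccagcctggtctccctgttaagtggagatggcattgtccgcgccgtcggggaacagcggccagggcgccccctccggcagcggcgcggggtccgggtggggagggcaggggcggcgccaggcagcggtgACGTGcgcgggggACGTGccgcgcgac

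Its intensity was 25.4, 28.5 and 49.5 in wild-type fed mice and fell to 14.3, 15.9 and 11.9 after fasting. The PPARα-null arrays read 26.1, 30.1 and 23.8 when fed and 7.30, 9.19 and 9.46 when fasted. Fed and fasted arrays did not overlap in either genotype. All fasted arrays lay under the expression level of 20, near background, so that the probe set was tested only because of its level in fed mice. The sizes of all its changes and differences that involve fasted mice are therefore uncertain. Relative to the shift the change was −0.93 in wild-type mice (standard error 0.21, adjusted p = 0.00811) and −1.31 in PPARα-null mice (standard error 0.21, adjusted p = 0.000199). Without wild-type fed replicate 3, the highest array, the wild-type change was −0.63 (adjusted p = 0.017). The fasting responses differed by 0.39 (95% interval −0.26 to 1.03, adjusted p = 0.383), and without that same array by 0.68 (adjusted p = 0.037), which passed the test. Fed genotypes differed by −0.31 and overlapped. Fasted PPARα-null arrays all read below fasted wild-type arrays, a difference of −0.70 (unadjusted p = 0.00582) that was not tested in the main comparison, since neither group reached 20, and that passed where no level was required (adjusted p = 0.034).

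Markers of other tissues moved with these changes. The summed level of 10 exocrine pancreas genes was 592 to 2087 in wild-type fed, 10392 to 20745 in wild-type fasted and 681 to 1193 in PPARα-null fed mice, and in PPARα-null fasted mice 23982, 610 and 25056 in replicates 1, 2 and 3. In replicate 2, where these markers were at the level of fed mice, Slc16a3 read 9.19 against 23.8 to 30.1 in fed PPARα-null mice, and Slc5a8 96.2 against 49.0 to 60.1. Smooth muscle genes summed to 4471 to 5352 in wild-type fed and 2004 to 3312 in wild-type fasted mice. Of 7 expressed ones 4 fell there, Acta2, Cnn1, Actg2 and Tagln, against 22.8% of genes that passed in either direction. In PPARα-null mice the sum was 4164 to 4603 when fed and 3028 to 3293 when fasted, and none of the 7 passed, against 50.4% of genes. With the pancreas markers as a covariate the wild-type change of Slc16a3 was −0.69 (adjusted p = 0.206) and with the smooth muscle markers −0.81 (adjusted p = 0.276), and it no longer passed. Its standard error was 0.31 and 0.36 there, against 0.21 without a covariate. Over all expressed probe sets the share that passed in wild-type mice was 10.6% and 7.37%, against 17.5%, so that calls were lost across the array. Among PPARα-null mice the change was −1.13 and −1.27 in these fits and passed. The wild-type change of Slc5a8 was 1.47 and 1.37 and passed in both. With PPARα-null fasted replicates 1 and 3 left out, which leaves 1 array in that group and takes its spread from the others, Slc5a8 changed by 1.13 and Slc16a3 by −1.23 in PPARα-null mice, and both passed. Lymphocyte and myeloid genes, 9 in the list, summed to 2252 to 2449 in wild-type fed and 1438 to 1550 in wild-type fasted mice, and to 2032 to 2130 and 1027 to 1138 in PPARα-null mice. The part of these cells in the changes of the carriers was not tested further. Of 2 genes of the distal small intestine, the sum was 6489 to 7928 in wild-type fed and 2068 to 2829 in wild-type fasted mice, and 6025 to 8433 and 5632 to 6274 in PPARα-null mice. Fabp6, the ileal bile acid binding protein, changed by −1.20 in wild-type and 0.01 in PPARα-null mice, and Slc10a2, the ileal bile acid carrier, by 0.02 and 0.98. Between fasted genotypes Fabp6 was higher by 1.21 and Slc10a2 by 0.81 in PPARα-null mice. The 4 proximal genes summed to 2062 to 2961 in wild-type fed, 1431 to 1934 in wild-type fasted, 1943 to 2563 in PPARα-null fed and 2064 to 2451 in PPARα-null fasted mice. Of these Cyp2b10 was higher in fasted PPARα-null than in fasted wild-type mice on its 3 probe sets (0.99 to 1.34), 1 of 3 genes tested, against 36.8% of genes. The proximal genes did not move alike. Upon fasting of PPARα-null mice 1 of 3 rose, Slc2a2, and 1 fell, Slc40a1, against 50.4% of genes, and in wild-type mice none passed, against 22.8%. The part of regional differences was not tested. Enterocyte markers were high on all arrays (5 genes, mean log2 of 12.5 to 12.7), and the 3 adipocyte and 3 erythrocyte genes summed to 14.4 to 25.1 and 15.8 to 22.4.

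Slc16a1, or MCT1, is the widespread proton-coupled carrier of lactate, ketone bodies and short-chain fatty acids, and is abundant in intestinal epithelium. Its intensity ranged from 504 to 744 over all arrays, and fed and fasted mice overlapped in wild-type but not in PPARα-null mice. The changes upon fasting were 0.12 in wild-type mice (95% interval −0.13 to 0.37) and −0.02 in PPARα-null mice (−0.27 to 0.22). As deposited they were −0.20 and −0.34 and did not pass either. The genotypes differed by 0.15 when fed and 0.01 when fasted. The plot of the carriers shows all 12 arrays for the 3 genes.

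**Figure D2:**
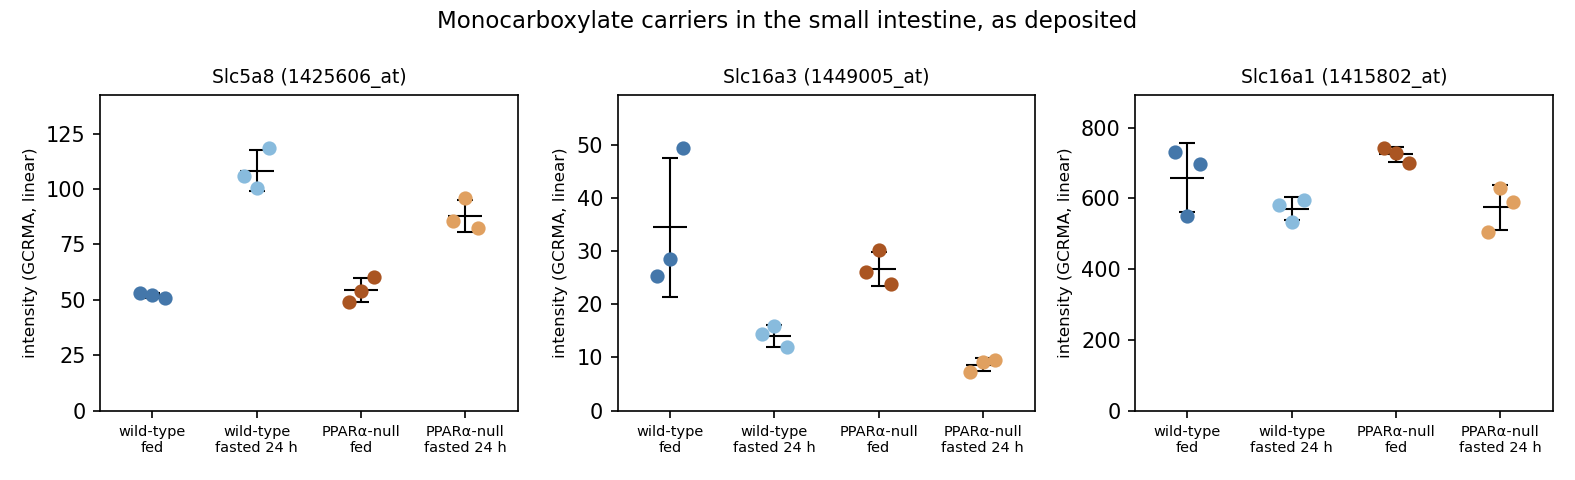
Intensity as deposited (GCRMA, linear scale from 0) of Slc5a8, Slc16a3 and Slc16a1 on each of the 12 arrays, by genotype and feeding state. Points are arrays, and bars the mean ± SD of 3. Slc5a8 lies at 50.9 to 53.2 in wild-type fed and 101 to 119 in wild-type fasted mice, Slc16a3 falls below 20 on every fasted array, and Slc16a1 stays between 504 and 744.

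Of the hexokinases, Hk1 is the ubiquitous form and Hk2 the inducible form of muscle, fat and proliferating cells. The expressed Hk1 probe set read 23.0 to 37.6 over all arrays and changed by 0.06 and 0.26 upon fasting in wild-type and PPARα-null mice, with the groups overlapping. The other Hk1 probe set was below 20 in every group (9.39 to 15.7) and was not tested. Across the 12 arrays these probe sets correlated at r = −0.386, so that the array gives no single reading of Hk1. Hk2 was 37.0, 40.6 and 51.8 in wild-type fed and 40.6, 24.8 and 28.5 in wild-type fasted mice. In PPARα-null mice it was 45.4, 47.1 and 69.4, and 45.1, 39.1 and 44.1. Its changes upon fasting were −0.16 and 0.01. Fasted PPARα-null mice read 0.48 above fasted wild-type mice (adjusted p = 0.068), and the groups overlapped through wild-type fasted replicate 1. Without that array, the one that made the groups overlap, the difference was 0.68 (adjusted p = 0.013) and passed. This was the only 1 of 29 alternatives in which it passed.

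Pfkl is the liver-type subunit of phosphofructokinase 1. Its upstream bases (minus strand, chr10:78009808-78010057) hold GCGTG at position −99, and are shown because the gene differed between genotypes.
Pfkl: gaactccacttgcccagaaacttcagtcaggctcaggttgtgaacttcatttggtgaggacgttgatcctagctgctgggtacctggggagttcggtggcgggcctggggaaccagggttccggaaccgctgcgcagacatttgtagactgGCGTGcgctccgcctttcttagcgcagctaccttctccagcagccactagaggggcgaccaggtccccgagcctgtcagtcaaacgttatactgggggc

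The brighter Pfkl probe set was 161, 152 and 178 in wild-type fed mice and 127, 160.2 and 108 in wild-type fasted mice. In PPARα-null mice it was 141, 118 and 116 when fed and 87.0, 76.1 and 100.2 when fasted. PPARα-null arrays lay below wild-type arrays in both feeding states, with no overlap. The difference was −0.58 in fasted mice (standard error 0.14, 95% interval −0.89 to −0.26, adjusted p = 0.00684), which passed, and −0.39 in fed mice (adjusted p = 0.313), which did not. The other probe set gave −0.35 (adjusted p = 0.056) and −0.29 (adjusted p = 0.446), the same direction below the threshold, and the probe sets correlated at r = 0.909 over the arrays. Its fasted levels in PPARα-null mice were 18.3, 18.4 and 18.2, under the level of 20. The 2 probe sets changed upon fasting by −0.01 and −0.02 in wild-type and by −0.20 and −0.08 in PPARα-null mice. As deposited, the first fell by 0.51 in PPARα-null mice and passed (adjusted p = 0.00737).

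Pfkfb3 makes and breaks down fructose 2,6-bisphosphate, with the balance strongly towards making it, and its mRNA is induced by hypoxia and by growth signals. RefSeq gives it 2 start sites, both on the minus strand. The bases before the first (chr2:11553930-11554179) hold ACGTG at position −60. Those before the second (chr2:11502091-11502340) hold GCGTG at position −122 and the E-box at position −53.
Pfkfb3, start site 1: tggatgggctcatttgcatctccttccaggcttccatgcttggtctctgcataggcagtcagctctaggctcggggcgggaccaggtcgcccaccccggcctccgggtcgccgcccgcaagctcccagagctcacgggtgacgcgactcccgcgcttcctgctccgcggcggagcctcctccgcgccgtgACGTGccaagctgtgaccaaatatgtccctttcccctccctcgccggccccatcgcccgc
Pfkfb3, start site 2: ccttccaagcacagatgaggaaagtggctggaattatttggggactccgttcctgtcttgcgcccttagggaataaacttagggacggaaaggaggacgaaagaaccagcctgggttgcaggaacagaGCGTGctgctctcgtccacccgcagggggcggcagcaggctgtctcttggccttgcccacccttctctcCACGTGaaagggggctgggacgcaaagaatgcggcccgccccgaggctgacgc

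The expressed Pfkfb3 probe set was 25.1, 24.1 and 28.9 in wild-type fed mice and 20.8, 20.5 and 25.1 in wild-type fasted mice. PPARα-null mice gave 43.1, 87.0 and 38.4 when fed and 19.7, 17.8 and 27.0 when fasted. Fed PPARα-null mice stood above the other 3 groups on every array, and replicate 2 was the highest of them. The change upon fasting was −0.996 in PPARα-null mice (standard error 0.25, adjusted p = 0.00455) and 0.08 in wild-type mice (95% interval −0.46 to 0.62). Without PPARα-null fed replicate 2 the former was −0.63 (adjusted p = 0.00802). The second probe set, which read 5.33 to 8.12 on all arrays, was below 20 in every group and was not tested. Of the members, the expressed Pfkfb3 probe set was the only one whose call differed between genotypes upon fasting.

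Aldoa is the ubiquitous aldolase and Gapdh the next dehydrogenase of the pathway, often used as a reference gene. All 4 Aldoa probe sets end in _x_at, which marks probes that can cross-hybridise, and they correlated at r = 0.880 to 0.955. They changed by −0.25, −0.24, 0.01 and −0.24 in wild-type mice and by −0.16, −0.10, 0.05 and −0.09 in PPARα-null mice, and none passed. As deposited, 3 of the 4 passed as lower in both genotypes, by 0.55 to 0.57 and by 0.40 to 0.48 on the log2 scale. Gapdh was read by 3 control probe sets along its transcript. From the 3′ end to the 5′ end they changed by −0.03, −0.08 and −0.15 in wild-type mice and by 0.11, 0.11 and 0.03 in PPARα-null mice, and none passed. As deposited, the middle and 5′ ones passed as lower in wild-type mice (−0.40 and −0.47). The log2 difference between the 3′ and 5′ Gapdh probe sets, a sign of RNA integrity, was 0.13 to 0.23 in wild-type fed, 0.29 to 0.33 in wild-type fasted, 0.19 to 0.20 in PPARα-null fed and 0.24 to 0.33 in PPARα-null fasted mice. The same difference for Actb was 0.65 to 0.77, 0.82 to 0.92, 0.68 to 0.80 and 0.75 to 0.83 in that order, so that fed and fasted mice overlapped for Actb in PPARα-null mice alone. The part of RNA integrity in the changes was not tested.

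Ldha, the lactate dehydrogenase subunit that favours lactate, was 3823, 3998 and 4079 in wild-type fed and 2587, 2892 and 2597 in wild-type fasted mice. In PPARα-null mice it was 4112, 4535 and 4083, and 3004, 3076 and 2873. All fasted arrays read below all fed arrays as deposited. Relative to the shift the changes were −0.24 in wild-type mice (adjusted p = 0.044) and −0.19 in PPARα-null mice (adjusted p = 0.060), under the fold of 1.3 required. As deposited they were −0.56 and −0.51 and both passed, and after quantile normalization of all arrays together −0.38 in wild-type mice, which passed (adjusted p = 0.00623), and −0.32 in PPARα-null mice, which did not. Ldha was thus lower upon fasting under these 3 scalings, and its call depended on the scaling.

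**Figure D3:**
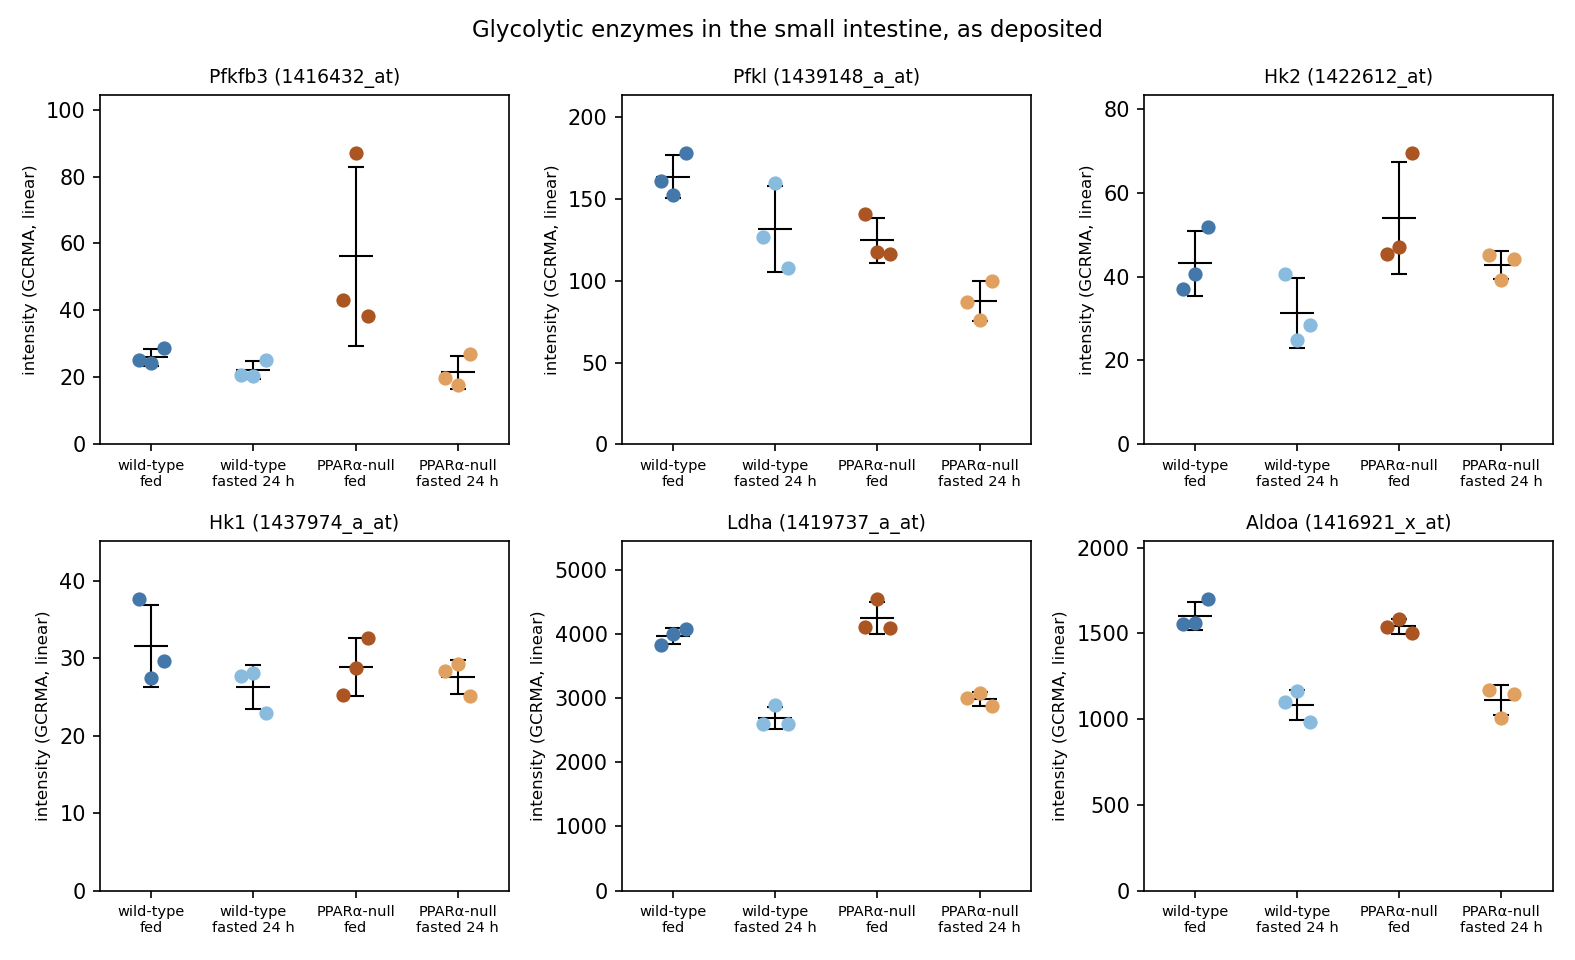
Intensity as deposited (GCRMA, linear scale from 0) of 1 probe set each of 6 glycolytic enzymes on the 12 arrays. Points are arrays, and bars the mean ± SD of 3. Pfkfb3 stands high in fed PPARα-null mice (38.4 to 87.0), and Ldha and Aldoa read lower in fasted mice before the common shift is removed. Pfkl reads lower in PPARα-null mice in both feeding states, a difference that passed the test in fasted mice alone.

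The choice of scaling changed calls among the enzymes and none among the carriers. As deposited, 5 of the 10 genes passed in wild-type mice, Slc5a8 as higher and Slc16a3, Aldoa, Gapdh and Ldha as lower, against 41.8% of genes on the same scale. In PPARα-null mice 6 passed, Slc5a8 as higher and Slc16a3, Pfkfb3, Pfkl, Aldoa and Ldha as lower, against 59.6% of genes.

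**Figure D4:**
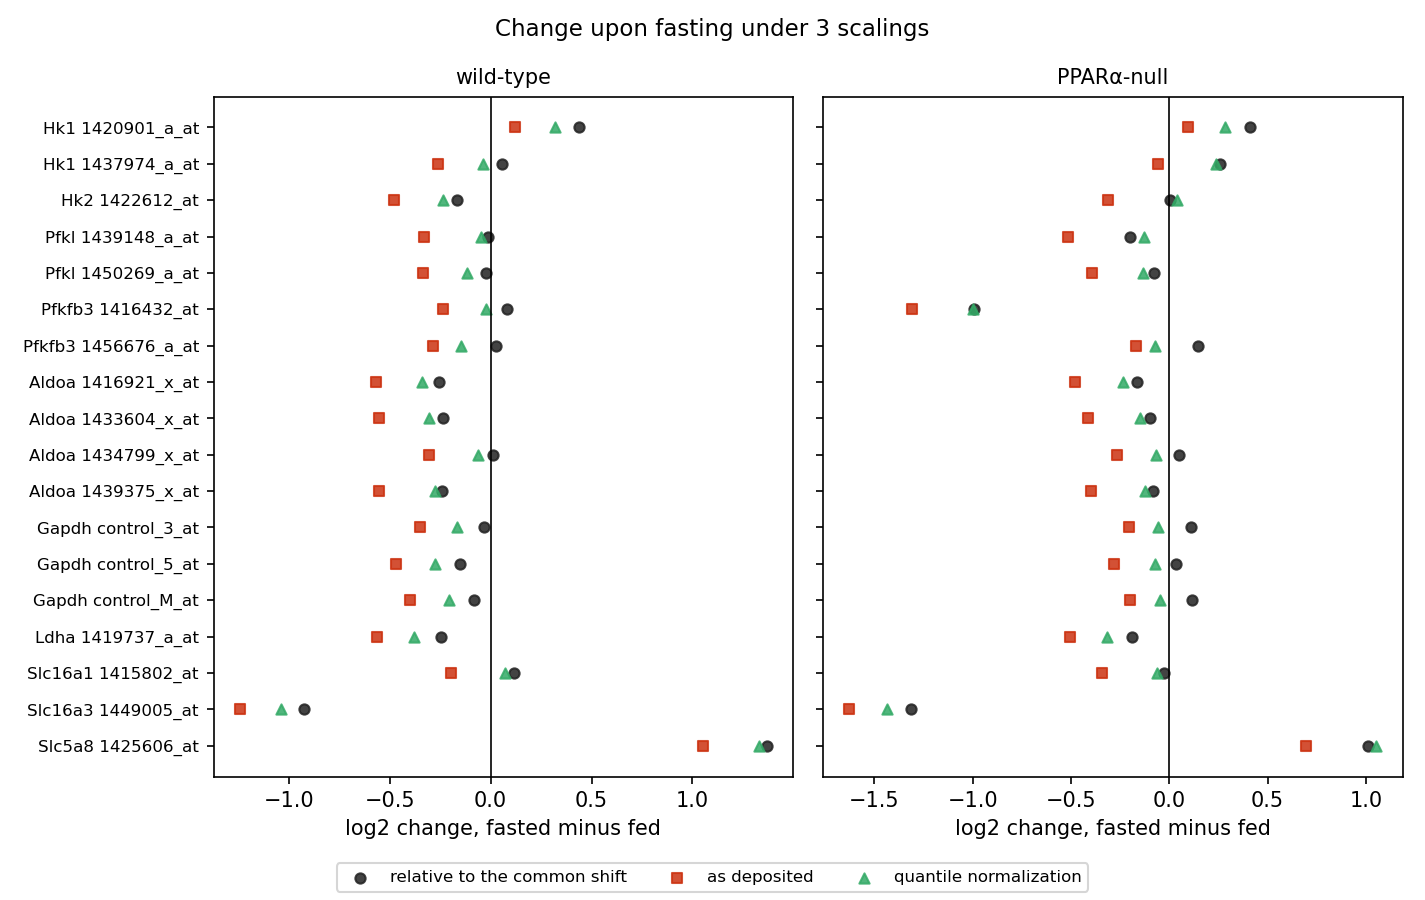
Change upon fasting (log2 of fasted over fed) of each probe set under 3 scalings, in wild-type mice on the left and PPARα-null mice on the right. The circles, relative to the shift, lie 0.32 above the squares, as deposited, by construction, and the triangles, quantile normalization of the 12 arrays together, lie between them for most probe sets. Slc5a8 stays above 0 and Slc16a3 below 0 in all 6 readings.

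Loss of PPARα in fed mice went with 1 change among the members. Pfkfb3 read higher in fed PPARα-null mice by 1.01 (standard error 0.25, 95% interval 0.47 to 1.55, unadjusted p = 0.00144), a fold of 2.02, and its adjusted p in limma was 0.114. That is 1 of 16 expressed probe sets of the members (6.25%), against 2.66% of 9560 probe sets, 1% higher and 1.65% lower. Without PPARα-null fed replicate 2 the difference was 0.65 (unadjusted p = 0.00228, adjusted p = 0.191), and the groups still did not overlap. In fasted mice Pfkl passed, lower in PPARα-null than in wild-type mice, 1 of 15 probe sets (6.67%), against 30.8% of 9217 probe sets, 14.0% higher and 16.8% lower. Its fed difference of −0.39 passed under 5 of 28 alternatives, with an adjusted p in limma of 0.193 to 0.243 there. Its fasting responses differed by 0.18 (adjusted p = 0.560). Subtracting the fasting response of PPARα-null mice from that of wild-type mice left 1 member past the test, Pfkfb3, at 1.07 (standard error 0.35, adjusted p = 0.043), against 22.4% of 9874 probe sets, 13.8% higher and 8.64% lower. It rests on the same fed PPARα-null arrays as the difference above, and it no longer passed in 18 of 28 alternatives, with values from 0.71 to 1.32.

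**Figure D5:**
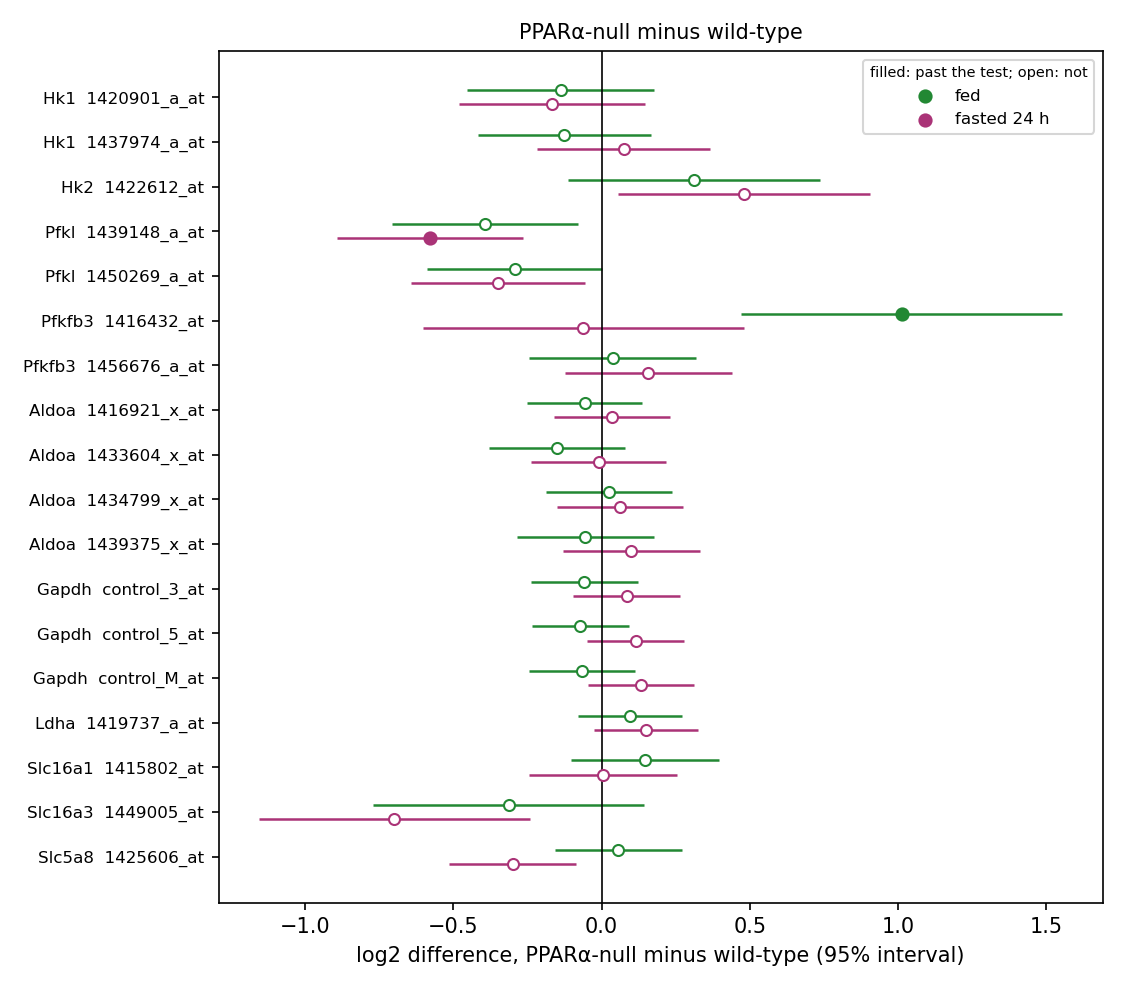
Difference between genotypes for each of the 18 probe sets (log2 of PPARα-null over wild-type; points are estimates, lines 95% intervals from limma) in fed and in fasted mice. Pfkfb3 at 1.01 in fed mice and Pfkl at −0.58 in fasted mice passed the test. Slc16a3 at −0.70 in fasted mice was below the level required and was not tested.

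Other genes of the pathway were taken from lists, and a gene counts where at least 1 of its probe sets passed. Of 26 other glycolytic enzymes 16 had a probe set of their own and 9 were expressed in wild-type fed mice. In wild-type mice 1 fell, Eno3, the muscle enolase, by 1.25 (from 24.3 ± 2.29 to 8.35 ± 2.30, adjusted p = 0.000296), and none rose, against 22.8% of genes. Eno3 was tested only through its level in fed mice, and its fasted level is under 20, near background, so that the size of the fall is uncertain. Smooth muscle markers fell in the same mice, and their part in the change of Eno3 was not tested. Pgk1, phosphoglycerate kinase, Pkm, pyruvate kinase, and Tpi1, triosephosphate isomerase, changed by −0.24 to −0.16, by −0.14 and by −0.18 to −0.02 and did not pass. In PPARα-null mice 4 of 9 fell, against 50.4% of genes, namely Eno3 (−1.50), the liver pyruvate kinase Pklr, Pgam1 (−0.44) and Tpi1. As deposited all 9 passed as lower in wild-type mice, and 6 did so without PPARα. Between fed genotypes 0 of 10 passed in limma, against 3.44% of genes. Bpgm had a probe set at an unadjusted p under 0.05 (adjusted p = 0.379), a looser threshold than that of the test. Between fasted genotypes 3 of 8 were higher in PPARα-null mice, Pgk1 by 0.43 to 0.54 on its 3 probe sets, Pkm by 0.39 and the hexokinase Hkdc1 by 0.46, against 36.8% of genes. The fasting responses differed for Pgk1 (−0.50 to −0.44) and 1 probe set of Tpi1 (0.40), against 27.9% of genes.

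Of 19 other monocarboxylate carriers and chaperones 8 were on the array and 2 were expressed in wild-type fed mice. Bsg, basigin, the chaperone that Slc16a1 and Slc16a3 need to reach the membrane, changed by −0.03 in wild-type and −0.07 in PPARα-null mice, and Mpc1, a subunit of the mitochondrial pyruvate carrier, by 0.07 and 0.48, the latter passing (adjusted p = 0.000703). Slc16a6, a carrier of ketone bodies in liver, read 17.2 ± 0.885 in wild-type fed, 17.7 ± 5.61 in wild-type fasted and 17.2 ± 3.63 in PPARα-null fed mice, and 71.2 ± 13.7 in PPARα-null fasted mice. It passed between fasted genotypes and between fasting responses, but was tested there only through PPARα-null fasted mice, and the other 3 groups were under 20, near background, so that no size is given. The fasting response of Mpc1 differed between genotypes as well (−0.40, adjusted p = 0.038).

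All 11 glucose carriers were on the array and 7 were expressed. In wild-type mice 1 of 7 passed, against 22.8% of genes, and in PPARα-null mice 5 of 7, against 50.4%. In the former Slc5a9 fell, a sodium-coupled carrier of mannose and glucose, by 0.48 to a level under 20, and the main intestinal ones, Slc5a1 and Slc2a2, changed by 0.24 to 0.44 and by 0.08 and did not pass. In the latter Slc5a1 (0.49 and 0.51), Slc2a1 (0.55 on 1 of 2 probe sets) and Slc2a2 (0.55) rose, and Slc2a9 (−0.80) and Slc5a9 (−1.01) fell, both to levels under 20. The fructose carrier Slc2a5 was lower in fasted PPARα-null than in fasted wild-type mice by 0.93, 1 of 5 tested, against 36.8% of genes. The fasting responses differed for Slc2a9 (0.91), 1 of 7, against 27.9%. Slc2a9 averaged 20.5 in wild-type fed, 17.8 in wild-type fasted, 17.5 in PPARα-null fed and 8.06 in PPARα-null fasted mice. It was thus tested only through wild-type fed mice and lay near background in the other groups, so that the sizes of its changes are uncertain.

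Of 11 regulators of glycolytic genes 8 were expressed. In wild-type mice 4 of 8 passed upon fasting, against 22.8% of genes, and in PPARα-null mice 5 of 8, against 50.4%. Between fed genotypes 1 of 8 passed, against 3.44%, between fasted genotypes 5 of 8, against 36.8%, and between fasting responses 3 of 8, against 27.9%. Egln3, an oxygen-sensing prolyl hydroxylase and itself a hypoxia-inducible factor target, fell upon fasting on 1 of 2 probe sets, by 0.90 in wild-type and 0.78 in PPARα-null mice, and was lower in fed PPARα-null mice on both (−0.91 and −1.44, adjusted p = 0.175 and 0.066) and in fasted ones (−0.79 and −1.59). Txnip, which restrains glucose uptake, rose by 0.50 in wild-type mice on 1 of 2 probe sets and by 1.07 and 1.45 in PPARα-null mice, responses that differed by −0.57 and −1.07, and was higher in fasted PPARα-null than in fasted wild-type mice (0.55 and 0.87). Myc rose by 0.60 in wild-type mice and fell by 0.90 in PPARα-null mice, a difference of 1.504 (adjusted p = 0.00139), and differed between fasted genotypes by −1.55, where its level was near background. Egln1, another prolyl hydroxylase, fell by 0.55 on 1 of 2 probe sets in wild-type mice and rose by 0.52 on the other in PPARα-null mice, and Ppargc1a fell on 3 of 4 expressed probe sets in PPARα-null mice (−1.54 to −0.90). On these 3 its responses differed by 1.03 to 1.40, and it was lower in fasted PPARα-null than in fasted wild-type mice (−1.43 to −0.77). Mlx, the partner of the glucose-sensing factors, was higher in fasted PPARα-null than in fasted wild-type mice on 1 of 2 probe sets (0.50, adjusted p = 0.023). Hif1a and Mlxipl, a hypoxia-inducible factor subunit and the glucose-sensing factor ChREBP, did not pass in either genotype (−0.19 to 0.19 and −0.27 to −0.09). Of 7 expressed reference genes, Rplp0 rose by 0.44 and Ywhaz fell on 1 of its probe sets by 0.59 in wild-type mice, while the Ywhaz probe sets of PPARα-null mice moved both ways (−1.07 and 0.40).

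The letters searched in the 250 bases before the start stood in 15 upstream regions of the 10 members. ACGTG was in 8 of them and in 16.6% of all 32851 RefSeq regions of that length, GCGTG in 7 and in 28.2%, and 1 or the other in 13, at least 1 for each member, and in 38.6% of all. The E-box was in 3, of Ldha, Pfkfb3 and Slc16a1, and in 6.02% of all, and AGGTCA in 2, both of Aldoa, and in 14.0% of all. Those 2 Aldoa regions overlap, and their AGGTCA is the same place in the genome, as is their ACGTG, so that each is counted for both. Members that passed a test and members that did not both held such letters, and a match of a few letters is a description of the sequence and not a site.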

How the data were processed

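RNA of 12 small intestines was hybridised to Affymetrix MOE430A arrays. The authors deposited 1 linear intensity per probe set and array, which the labels' processing notes credit to GCRMA 2.20, and the annotation table gave 20393 of 22690 probe sets 1 gene symbol, 691 several and 1606 none. The intensities were taken to log2 and fitted with limma 3.58.1 in R 4.3.3 as 4 group means over all arrays, with moderated variances. Changes upon fasting were taken relative to the median fasted minus fed difference over the 9370 probe sets above 20 in wild-type fed mice. A probe set was tested where its mean was over 20 in wild-type fed mice (fasting), in either group (genotype) or in any group (difference between fasting responses), and passed at p under 0.01 and a fold over 1.3, for the last also at an adjusted p under 0.05. The script was tested on simulated data. The test was checked against other scalings, level filters, variances, array weights, marker covariates and leaving out each array in turn.

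The members and the lists were chosen with earlier results of these data known. Of the members all probe sets are named, and of each list up to 4 genes that rose and 4 that fell and up to 3 of the highest others upon fasting in wild-type mice, those that passed between genotypes or between fasting responses, and for each carrier the 3 genes most alike over the arrays. Hif1a, Mlxipl, Slc5a1 and Slc2a2, where they passed no such test, were named after their values were seen. Upstream bases come from RefSeq (GRCm38.p6), and the protein sequences were not used here. Replicate numbers did not pair the samples. Whether RNA was pooled is not stated in the labels or methods. Figures were drawn with matplotlib 3.10.9.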

Additional observations from a re-analysis of the deposited data

Results flagged for a closer look

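The fasting response of Pfkfb3 differed between wild-type and PPARα-null mice by 1.07 on the log2 scale (adjusted p = 0.043 in limma), a difference between groups under the same contrast. It rests on fed PPARα-null mice (43.1, 87.0 and 38.4), and without the highest of these arrays it was 0.71 (adjusted p = 0.044). The difference stayed above 0 in all 28 alternatives (0.71 to 1.32), but in 18 of them it no longer passed. Among these were quantile normalization (adjusted p in limma of 0.063) and leaving out each wild-type array in turn (0.054 to 0.087). The call is therefore not stable.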

How the results depend on the processing

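The counts below are of the 10 genes. Upon fasting of wild-type mice 2 passed, against 5 as deposited, 3 after quantile normalization, where Ldha joined, 0 with a level over 100, and 1 with exocrine pancreas or with smooth muscle signal as a covariate, where Slc16a3 was lost. With these covariates the share of all genes that passed there fell as well, from 22.8% to 14.0% and 10.2%. In PPARα-null mice 3 passed, against 6 as deposited and 0 with a level over 100. Over all probe sets the values as deposited gave 3204 calls in wild-type mice (233 higher, 2971 lower) against 1636 (940 and 696) and 1680 after quantile normalization (736 and 944), and 4829 in PPARα-null mice (765 and 4064) against 3955 (1747 and 2208). Median centring gave 61 higher and 223 lower between fed genotypes, against 96 higher and 158 lower, and 1054 higher and 1144 lower between fasting responses, against 1358 higher and 853 lower. Between fed genotypes 1 passed, against 2 after quantile normalization, with each array centred on its median, with only the groups compared and with array weights, where Pfkl joined Pfkfb3, and 0 with a level over 100 or an adjusted p under 0.05. Leaving out 1 array gave 1 to 2, the latter without wild-type fasted replicate 2. Between fasted genotypes 1 passed, against 2 with no level required or with a mean over 20 over all arrays, where Slc16a3 joined Pfkl, and 0 without probe sets ending in _s_at, _x_at or _a_at, which removes Pfkl. Leaving out 1 array gave 1 to 2, the latter without wild-type fasted replicate 1, where Hk2 joined. Between fasting responses 1 passed, Pfkfb3, against 0 with a shift for each genotype, quantile normalization, median centring, no level required, a level over 100, array weights, either marker covariate, or PPARα-null fasted replicates 1 and 3 left out. With the replicate number as a block it was also 0 (Pfkfb3 1.07, adjusted p = 0.058), and 5 of 18 pairs of same-numbered samples correlated over 0.1 (−0.149 to 0.218). Leaving out 1 array gave 0 to 1. Among the values of single probe sets under all alternatives, none that passed changed direction, 27 no longer passed, 23 newly passed, and 120 changed sign with no test passed. The fit on only the groups compared was not run for the difference between fasting responses. The cause of these changes was not tested. Probe sets under 20 lie near the background of the array. This limits Slc16a3, Eno3 and Slc5a9 in fasted mice, Slc16a6 and Slc2a9 in 3 groups each, Myc in PPARα-null fasted mice, and the second probe sets of Hk1 and Pfkfb3.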

Other observations

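Across the 12 arrays the probe sets whose log2 levels were most alike were Melk (r = 0.980), Lig3 (0.979) and Rnf121 (0.977) for Slc16a3, and Ccl9 (0.931), Acot1 (0.922) and Ctdsp2 (0.922) for Slc5a8. For Slc16a1 they were Ywhae (0.952), Tmed5 (0.929) and Ube2v2 (0.926). Melk is a kinase of dividing cells, Lig3 a DNA ligase and Acot1 an acyl-CoA thioesterase. These points share the 4 groups and the fasted and fed sets, and the values are descriptions, picked as the highest of all expressed probe sets.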
